A study of Mus musculus with 42 samples.

Results

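Regulatory T (Treg) cells of mouse visceral fat were set against stromal cells of the same depot. The comparison holds 9 of the 42 libraries of the series, taken by their sample titles: 3 Treg libraries, 3 libraries of the stromal population titled VmSC4 and 3 of the population titled VmSC5. The Treg cells came from tissue labelled eVAT of mice with the genotype OSM+/+, which carry intact alleles of oncostatin M (OSM), and their labels name no treatment. The stromal cells came from tissue labelled VAT of mice with the genotype Pparg-Tdt, with the treatment given as N/A; other stromal samples of the series are labelled as transferred or cultured, so these are called fresh here. Each library was made from polyA RNA of 1000 cells that had passed the sorter a second time. The sort gates, the ages of the mice, what Pparg-Tdt reports beyond its name and whether the Treg mice carried it are not given in the sources used here. Genotype, sort and preparation differ together with cell type, so the cell types and the experiments cannot be told apart. Nothing in the labels says that libraries of a group came from separate mice, so p-values measure the spread between these libraries, which may be technical. The series as a whole concerns how Treg cells of visceral fat restrain the making of adipocytes through OSM, and the comparison shows which compartment carries the transcripts of each signal and of its receptor.

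Treg cells are CD4 T cells that depend on the transcription factor Foxp3 and hold other immune cells in check. Those of visceral fat differ from Treg cells of lymphoid tissue: they use Gata3 and Pparg, carry the interleukin-33 (IL-33) receptor ST2, encoded by Il1rl1, and receive IL-33 from stromal cells of the depot. The stromal fraction holds fibroblast-like cells marked by Pdgfra, among them DPP4+ progenitors and committed preadipocytes, which can become adipocytes. OSM is a cytokine of the interleukin-6 (IL-6) family. Its receptor in the mouse is a dimer of the OSM receptor chain, Osmr, and the chain that the family shares, gp130, encoded by Il6st.

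The promoters of 2 ligand-receptor pairs are shown because each pair had its ligand in one compartment and its receptor in the other. Areg encodes the growth factor amphiregulin, found in Treg cells, and Egfr encodes its receptor, found in stromal cells. Il33 was found in stromal cells and its receptor gene Il1rl1 in Treg cells. The sequences are from RefSeq on GRCm38.p6, which is mm10, run from 250 bases before to 50 bases after an annotated start, and were found for 4 of the 5 genes looked up. Positions are chr5:91139349-91139648, plus strand for Areg, chr11:16751953-16752252, plus strand for Egfr, chr19:29945540-29945839, plus strand for Il33 and chr1:40439379-40439678, plus strand for Il1rl1. Capitals mark matches on either strand to TATAAA, the TATA box, to GGGCGG, the GC box, and to AGATAA, a site of GATA factors.
Areg: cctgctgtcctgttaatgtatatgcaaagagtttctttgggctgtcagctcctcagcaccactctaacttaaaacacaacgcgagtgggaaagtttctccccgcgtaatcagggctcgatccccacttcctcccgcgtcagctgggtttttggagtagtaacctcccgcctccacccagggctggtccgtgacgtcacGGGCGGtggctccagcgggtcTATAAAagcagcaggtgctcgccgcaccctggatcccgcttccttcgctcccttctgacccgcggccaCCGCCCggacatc
Egfr: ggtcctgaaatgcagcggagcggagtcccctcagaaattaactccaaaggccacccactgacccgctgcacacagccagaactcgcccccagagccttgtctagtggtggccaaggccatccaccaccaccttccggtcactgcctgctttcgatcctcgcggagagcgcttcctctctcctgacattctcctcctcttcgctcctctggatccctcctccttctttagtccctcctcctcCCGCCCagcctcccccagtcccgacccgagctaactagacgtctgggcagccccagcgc
Il33: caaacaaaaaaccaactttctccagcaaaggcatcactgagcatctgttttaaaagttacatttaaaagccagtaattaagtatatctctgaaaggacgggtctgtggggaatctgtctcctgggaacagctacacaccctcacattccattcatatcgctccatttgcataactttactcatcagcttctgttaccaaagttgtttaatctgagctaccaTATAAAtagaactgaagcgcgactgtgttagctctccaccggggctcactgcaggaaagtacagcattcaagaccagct
Il1rl1: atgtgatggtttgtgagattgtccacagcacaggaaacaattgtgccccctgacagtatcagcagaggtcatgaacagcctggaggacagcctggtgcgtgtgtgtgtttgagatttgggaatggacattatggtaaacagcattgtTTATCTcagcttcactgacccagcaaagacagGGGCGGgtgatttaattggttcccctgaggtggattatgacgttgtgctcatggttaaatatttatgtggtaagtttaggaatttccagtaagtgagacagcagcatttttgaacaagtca

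Areg held TATAAA 31 to 26 bases before its start, GGGCGG 52 to 47 bases before it, and GGGCGG on the opposite strand 37 to 42 bases after it. Egfr held GGGCGG on the opposite strand 9 to 4 bases before its start and no other match. Il33 held TATAAA 29 to 24 bases before the start shown, and its other annotated start, with a window at chr19:29924863-29925162, had TATAAA 203 to 198 bases before it. Il1rl1 held AGATAA on the opposite strand 103 to 98 bases before the start shown and GGGCGG 71 to 66 bases before it. Its other start, with a window at chr1:40429320-40429619, had AGATAA 217 to 212 bases before it. No match of one motif overlapped a match of another. Of the 32851 promoter windows of this length, 13.6% held TATAAA, 35.7% held GGGCGG and 11.2% held AGATAA, so a match describes the letters of a window and no more.

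Total counts ran from 3341231 to 4438234 in the Treg libraries and from 8527769 to 12514783 in the stromal libraries. Genes with a count numbered 23253 to 24287 in Treg libraries and 20411 to 23831 in stromal libraries, and at the depth of the shallowest library 22539 to 23446 in Treg libraries and 17841 to 19214 in stromal libraries. Mitochondrial genes took 0.739% to 0.893% of the counts of Treg libraries and 0.0722% to 0.423% of those of stromal libraries. Ribosomal protein genes took 4.11% to 4.68% in Treg libraries and 1.44% to 1.67% in stromal libraries, and the 50 most abundant genes of each library took 13.7% to 14.2% in Treg libraries and 27.8% to 31.2% in stromal libraries. The part of these differences in the results below was not tested. Levels are in CPM, counts scaled to a common library total with TMM factors, which divide out shifts that a few abundant genes cause. Differences are log2 values of Treg minus stroma with their standard error (SE), from the quasi-likelihood F test of edgeR, and p-values are adjusted by the Benjamini-Hochberg method over the 15592 genes tested. A gene was called at an adjusted p under 0.05. Where the libraries of one compartment held no count of a gene, its fold is a bound computed with 3 counts in their place. Where they held 1 to 3 counts, a ratio is given with its 95% exact counting interval. Bounds and intervals cover counting error only. Where a set held 4 to 49 counts, levels and the call are given without a fold, because it rests on a few counts; Osm is the exception.

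The compartments differed in most of the transcriptome: 11374 of 15592 genes, or 72.9%, were called. Of these, 5478 genes (35.1% of those tested) were higher in Treg cells and 5896 (37.8%) were lower. Beyond 4-fold, 2417 genes (15.5%) were higher and 3286 (21.1%) were lower in Treg cells. Without TMM factors, scaled by library totals alone, the median difference of all genes was 0.50 in place of -0.04, and the split was 7460 genes higher and 4378 lower in Treg cells. A gene with no expression in one compartment enters the test through the other, so the counts of list members below describe the lists and are to be read against these shares. The libraries of the compartments did not overlap for 65.0% of all genes tested. Most genes named below were picked by level or by call, so a lack of overlap among them is no separate result. In bulk samples, fewer cells of a type and less RNA per cell cannot be told apart, which holds for every marker of a cell type given here.

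The Treg libraries carried the transcripts of T cells and Treg cells, and the stromal libraries almost none of the T cell genes. The 30 genes of the pan-T list summed to 19687 to 20561 CPM in the Treg libraries and 11.97 to 49.1 CPM in the stromal libraries. Foxp3, the defining transcription factor, had 247, 256 and 233 CPM in Treg cells, against 0 to 0.288 CPM (median 0.253) in stromal cells (adjusted p = 7.26e-16). Ptprc, which encodes the leukocyte antigen CD45, had 1707, 1949 and 1783 CPM in Treg cells, against 0 to 0.127 CPM (median 0) in stromal cells. A single count of Ptprc stood among all 6 stromal libraries, for a Treg-to-stroma ratio of 100472, with a counting interval of 18031 to 3968590.0, adjusted p = 1.36e-16. All 29 tested genes of the pan-T list, which holds 30, were higher in Treg cells, with a median log2 difference of 12.48, or 12.30 with the 3 genes without a stromal count at their floor, against -0.04 over all genes. Among them Coro1a, an actin regulator of leukocytes, had 2129, 2169 and 2209 CPM in Treg cells, against 0 to 2.13 CPM (median 0.513) in stromal cells (adjusted p = 6.56e-10). Lcp1, the leukocyte form of plastin, had 2124, 1931 and 2068 CPM in Treg libraries and 0 to 0.177 CPM (median 0) in stromal libraries. In each of these genes the lowest Treg library lay far above the highest stromal library.

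Of 23 Treg core genes, 22 were in the table and tested, and 21 were higher in Treg cells (median log2 difference 7.66). They summed to 6741 to 6948 CPM in the Treg libraries and 992 to 1326 CPM in the stromal libraries, so a part of the list was also found in stroma. Il2rb, a chain of the interleukin-2 (IL-2) receptor on which Treg cells depend, had 963, 1001 and 1094 CPM in Treg cells, against 0.957 to 3.81 CPM (median 1.41) in stromal cells (log2 difference 9.27 ± 0.24, adjusted p = 2.92e-15). Ikzf2, which encodes the transcription factor Helios, had 612, 706 and 655 CPM in Treg cells, against 2.80 to 7.10 CPM (median 3.92) in stromal cells (log2 difference 7.28 ± 0.18, adjusted p = 7.83e-16). Several core genes were transcripts of both compartments. Capg, an actin-capping protein, had 574, 545 and 627 CPM in Treg cells, against 318 to 541 CPM (median 358) in stromal cells (log2 difference 0.60 ± 0.12, adjusted p = 0.000267). Nrp1, a co-receptor used as a marker of Treg cells, had 487, 422 and 443 CPM in Treg cells, against 319 to 427 CPM (median 347) in stromal cells (log2 difference 0.31 ± 0.12, adjusted p = 0.0237). The call of Nrp1 was lost without Treg library 1 or 3, VmSC4 library 2 or VmSC5 library 1 or 2, at adjusted p between 0.0598 and 0.131. Lrrc32, which encodes GARP, the surface anchor of latent TGF-beta, had 136, 119 and 121 CPM in Treg cells, against 44.3, 24.3 and 74.3 CPM in VmSC4 and 116, 108 and 153 CPM in VmSC5 (log2 difference 0.70 ± 0.24, adjusted p = 0.017). Treg cells and VmSC5 overlapped in Lrrc32, the difference against VmSC5 alone was 0.00, adjusted p = 0.994, and the call was lost without any 1 Treg library or VmSC5 library 2, at adjusted p between 0.0524 and 0.0892. Entpd1, the ectoenzyme CD39, showed the same layout, with 101, 114 and 129 CPM in Treg cells, 31.0, 39.0 and 40.3 CPM in VmSC4 and 97.3, 98.7 and 107 CPM in VmSC5 (log2 difference 0.91 ± 0.13, adjusted p = 5.8e-06). Against VmSC5 alone its difference was 0.18, adjusted p = 0.285.

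All 27 genes of the list of visceral fat Treg cells were tested, and 22 were higher in Treg cells (median log2 difference 4.70). Gata3, a transcription factor of type 2 lymphocytes and of these Treg cells, had 1287, 1331 and 1552 CPM in Treg cells, against 0 to 1.55 CPM (median 0) in stromal cells (adjusted p = 8.01e-14). Klrg1, an inhibitory receptor for cadherins, had 665, 636 and 717 CPM in Treg libraries and no count in any stromal library (at least 12519.8-fold higher in Treg cells, adjusted p = 3.92e-15). Fgl2, a secreted fibrinogen-like effector of Treg cells, had 784, 734 and 776 CPM in Treg cells, against 53.8 to 242 CPM (median 100.2) in stromal cells (log2 difference 2.83 ± 0.15, adjusted p = 3.98e-11). Gata3 and Klrg1 thus stood in Treg cells, while Fgl2 was also a transcript of stromal cells and differed between them, with 242, 128 and 173 CPM in VmSC4 and 72.7, 64.1 and 53.8 CPM in VmSC5. The other 5 genes of the list were lower in Treg cells and are given with the genes that stood against their list.

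**Figure D1:**
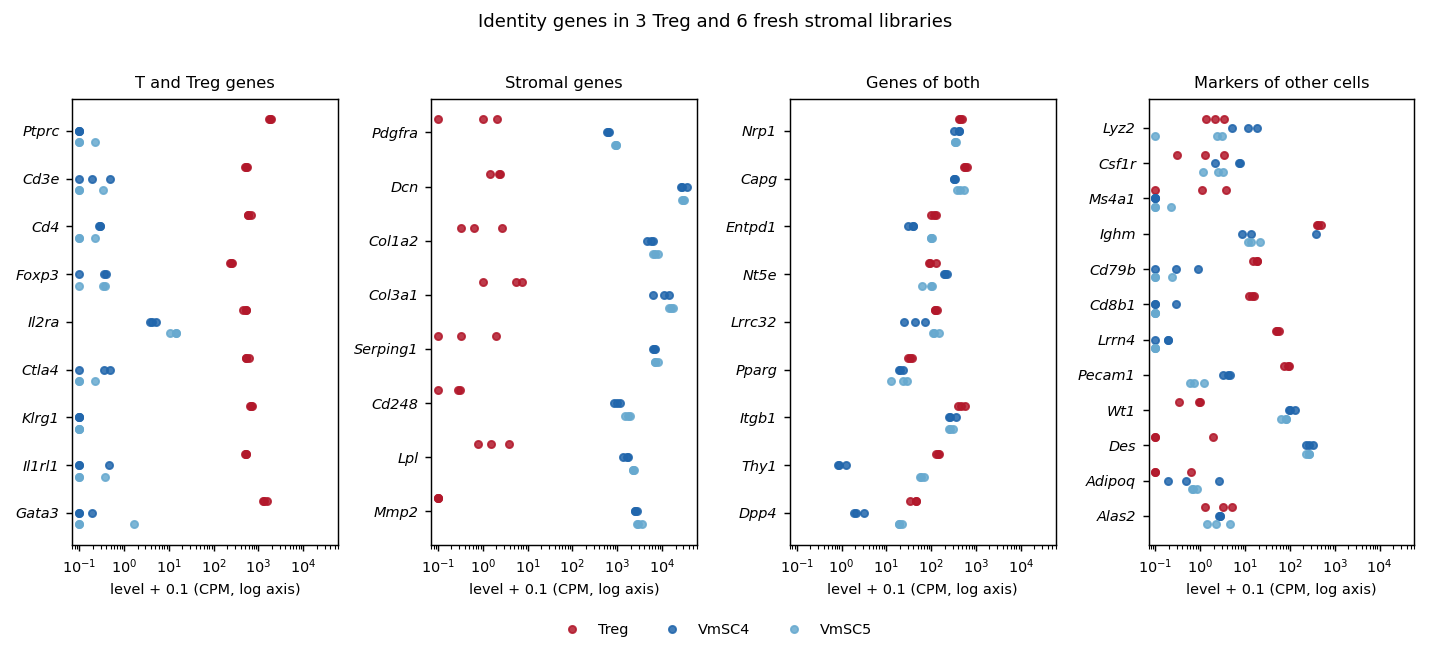
Levels in CPM plus 0.1, on a log axis, of T and Treg genes, stromal genes, genes of both compartments and markers of other cells in each library, with Treg libraries in red above VmSC4 in dark blue and VmSC5 in light blue. T and Treg genes stand in the Treg libraries and matrix genes in the stromal libraries, while Nrp1 and Capg lie within a factor of 2 in the means of both.

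The stromal libraries carried the transcripts of fibroblast-like cells, most of which were low in Treg cells. The 32 stromal identity genes summed to 952 to 1168 CPM in the Treg libraries and 81818 to 106310.0 CPM in the stromal libraries. Of them 29 were lower in Treg cells (median log2 difference -9.61) and 3 higher; lower too were all 30 matrix genes (median -9.78, or -9.55 with the 3 genes without a Treg count at their floor). Pdgfra, the platelet-derived growth factor receptor that marks adipocyte progenitors, had 0, 0.923 and 2.03 CPM in Treg cells, against 600.3 to 963 CPM (median 769.6) in stromal cells (adjusted p = 7.18e-14). Dcn, the matrix proteoglycan decorin, had 2.30, 1.38 and 2.23 CPM in Treg cells, against 26018 to 36476 CPM (median 29085) in stromal cells (adjusted p = 1.81e-16). Col3a1, a fibrillar collagen, had 5.31, 0.923 and 7.31 CPM in Treg cells, against 6236 to 17171 CPM (median 14306) in stromal cells (log2 difference -11.44 ± 0.48, adjusted p = 1.91e-11). Serping1, the complement C1 inhibitor, had 0, 0.231 and 1.83 CPM in Treg cells, against 6161 to 8124 CPM (median 6840.2) in stromal cells (adjusted p = 9.91e-15). No Treg library came near the level of any stromal library in these genes. Among matrix genes, Fn1 (fibronectin) averaged 1.73 ± 1.499 CPM in Treg cells and 2318 ± 793 CPM in stromal cells (SD, n = 3 and 6). Nid1 (nidogen) averaged 3.93 ± 1.24 CPM in Treg cells and 2168 ± 523 CPM in stromal cells. Prelp, a leucine-rich proteoglycan, averaged 0.136 ± 0.121 CPM in Treg cells and 1754 ± 187 CPM in stromal cells.

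Genes of DPP4+ progenitors and of committed preadipocytes were both present, and the stromal populations differed in them. Of 20 progenitor genes, 17 were lower in Treg cells, 2 higher and 1 not called, and of 19 tested preadipocyte genes (20 listed) 17 were lower and 2 higher. Between the stromal populations 1386 genes (8.89%) were called, among them 14 progenitor genes, all of them higher in VmSC5. Cd248, the surface protein endosialin, had 0.177, 0 and 0.203 CPM in Treg cells, 1145, 839.6 and 988 CPM in VmSC4 and 1713, 1935 and 1473 CPM in VmSC5, where it was higher in VmSC5 than in VmSC4 (log2 difference 0.79 ± 0.15, adjusted p = 0.00538). Fbn1, a protein of microfibrils, had 0.354, 1.38 and 1.83 CPM in Treg cells, 534, 813 and 575 CPM in VmSC4 and 869, 1112 and 1715 CPM in VmSC5 (log2 difference 0.94 ± 0.24, adjusted p = 0.0242 for VmSC5 minus VmSC4). Dpt, the matrix protein dermatopontin, had 0, 0.231 and 0 CPM in Treg cells, against 635 to 1163 CPM (median 898) in stromal cells, and its populations were not called apart (log2 difference 0.31 ± 0.17, adjusted p = 0.294). The preadipocyte list was mixed between populations, with 5 genes higher and 3 lower in VmSC5 than in VmSC4. Apoe, the lipid carrier apolipoprotein E, had 12.7, 14.5 and 6.29 CPM in Treg cells, 4268, 3103 and 2724 CPM in VmSC4 and 800.2, 1043 and 1565 CPM in VmSC5 (log2 difference -1.57 ± 0.26, adjusted p = 0.00223). Col4a2, a collagen of basement membrane, had 0.884, 0.692 and 1.02 CPM in Treg cells, 1487, 1169 and 1799 CPM in VmSC4 and 2504, 2926 and 2589.9 CPM in VmSC5 (log2 difference 0.85 ± 0.15, adjusted p = 0.00337 for VmSC5 minus VmSC4). Sparcl1, a matrix glycoprotein, had 0, 0.923 and 0.812 CPM in Treg cells, against 2035 to 2698 CPM (median 2257) in stromal cells. Apoe and Col4a2 thus pointed to opposite populations. All of these genes separated stromal from Treg libraries without overlap, as did 65.0% of all genes tested.

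Markers of other cell types were low with a few exceptions. The 6 macrophage markers summed to 2.64 to 11.3 CPM in the Treg libraries and 4.42 to 27.2 CPM in the stromal libraries, and none of the 3 tested ones was called. Lyz2 (lysozyme) averaged 2.22 ± 1.08 CPM in Treg cells and 6.66 ± 6.91 CPM in stromal cells. This stromal mean pools populations that were called apart, with Lyz2 higher in VmSC4 than in VmSC5. Against VmSC4 alone Lyz2 was called lower in Treg cells. Csf1r, a growth factor receptor of macrophages, averaged 1.57 ± 1.62 CPM in Treg cells and 3.93 ± 2.86 CPM in stromal cells. Cd68 averaged 2.68 ± 1.68 CPM in Treg cells and 2.29 ± 1.57 CPM in stromal cells. Lyz2 was called lower in Treg cells without VmSC5 library 3 (adjusted p = 0.0238) and Csf1r without Treg library 1 (adjusted p = 0.0158), while Cd68 turned direction without Treg library 2 (adjusted p = 0.796). The 4 neutrophil markers stayed at 0.177 to 1.22 CPM in the Treg libraries and 0 to 0.355 CPM in the stromal libraries, and the 5 adipocyte markers at 0.406 to 1.61 CPM in the Treg libraries and 0.972 to 8.79 CPM in the stromal libraries. Of these, Cidec, a lipid droplet protein, was the 1 gene tested, at 0.231 ± 0.400 CPM in Treg cells and 1.49 ± 1.20 CPM in stromal cells, and was not called (a stroma-to-Treg ratio of 7.31, with a counting interval of 2.42 to 36.2, adjusted p = 0.0546). It was called without any 1 of Treg library 2, VmSC4 library 2 or VmSC5 library 3 (adjusted p 0.0209, 0.0425 and 0.0136). Alas2, an enzyme of haem synthesis in red cells, was not called at 3.11 ± 1.99 CPM in Treg cells and 2.61 ± 1.03 CPM in stromal cells, and its direction turned without Treg library 1 (adjusted p = 0.662). Transcripts of macrophages, neutrophils, adipocytes and red cells were thus few in either compartment.

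Lymphocyte markers beyond the T lineage stood in the Treg libraries. Ighm, the heavy chain of immunoglobulin M, had 495, 407 and 427 CPM in Treg cells, 13.4, 380.0 and 8.56 CPM in VmSC4 and 21.4, 13.5 and 11.5 CPM in VmSC5 (log2 difference 3.28 ± 1.13, adjusted p = 0.0368). One stromal library, VmSC4 library 2, was at the level of the Treg libraries, and without it the difference was 5.04, adjusted p = 2.9e-13. Without any 1 Treg library or any 1 VmSC5 library the call was lost, at adjusted p between 0.0723 and 0.0847. The signalling chains of the B cell receptor were also read: Cd79b had 18.0, 14.99 and 17.9 CPM in Treg cells, against 0 to 0.768 CPM (median 0.0694) in stromal cells. Cd79a had 2.48, 0.923 and 2.44 CPM in Treg cells, against 0 to 0.940 CPM (median 0.490) in stromal cells. Ms4a1, which encodes the B cell antigen CD20, did not pass the filter and reached at most 3.71 CPM in Treg cells. Cd8b1, a chain of the CD8 co-receptor, had 14.3, 15.7 and 12.2 CPM in Treg cells, against 0 to 0.192 CPM (median 0) in stromal cells. Prf1 (perforin) had 2.83, 6.92 and 6.50 CPM in Treg cells, against 0 to 1.39 CPM (median 0.478) in stromal cells. Of 6 markers of natural killer (NK) and CD8 T cells, 4 had a median under 1 CPM in Treg libraries. Xcr1, a chemokine receptor of dendritic cells, had 3.18, 1.85 and 3.45 CPM in Treg cells, against 0 to 0.0887 CPM (median 0) in stromal cells. The class II genes of antigen presentation were also higher in Treg cells, 5 of 6 tested, and summed to 115 to 186 CPM in the Treg libraries and 13.8 to 23.5 CPM in the stromal libraries. H2-Eb1 averaged 53.3 ± 10.7 CPM in Treg cells and 6.88 ± 1.02 CPM in stromal cells, H2-DMa 39.2 ± 8.52 CPM in Treg cells and 3.64 ± 1.55 CPM in stromal cells and Cd74 31.9 ± 12.8 CPM in Treg cells and 0.796 ± 0.678 CPM in stromal cells. Every one of these 3 differences was called, and the share that B or dendritic cells had in them was not tested.

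Some markers of vessel wall and mesothelium moved with the compartments too. Pecam1, the adhesion molecule CD31, which T cells also carry, had 95.9, 74.5 and 90.5 CPM in Treg cells, against 0.478 to 4.51 CPM (median 2.14) in stromal cells (log2 difference 5.67 ± 0.21, adjusted p = 1.13e-13). Kdr, a receptor of endothelial cells, had 0, 0 and 0.203 CPM in Treg cells, against 0.417 to 3.37 CPM (median 1.82) in stromal cells. Emcn, an endothelial sialomucin, had 0.177, 0.231 and 0.203 CPM in Treg cells, against 0 to 15.3 CPM (median 1.57) in stromal cells, the highest of them VmSC4 library 1. Its call (adjusted p = 0.0418) was lost without VmSC4 library 1 (adjusted p = 0.0739), VmSC5 library 2 (0.285) or any 1 Treg library (0.0788 to 0.102). Wt1, a transcription factor of mesothelium that stromal cells of visceral fat share, had 0.884, 0.231 and 0.812 CPM in Treg cells, against 61.7 to 133 CPM (median 89.6) in stromal cells. Lrrn4, another mesothelial marker, had 48.1, 51.9 and 57.7 CPM in Treg cells, against 0 to 0.0940 CPM (median 0) in stromal cells. The remaining mesothelial markers, Msln, Upk3b and Krt19, had medians under 1 CPM in both sets. Of 6 markers of pericytes and smooth muscle, the 5 tested were lower in Treg cells. Des (desmin) had 0, 0 and 1.83 CPM in Treg cells, against 232 to 319 CPM (median 261) in stromal cells. Myh11, a smooth muscle myosin, had 1.77, 1.61 and 0.609 CPM in Treg cells, against 10.8 to 110.3 CPM (median 34.7) in stromal cells. Acta2, smooth muscle actin, had 0.354, 0.231 and 0 CPM in Treg cells, against 2.59 to 36.1 CPM (median 7.23) in stromal cells. Zbtb46, a transcription factor of dendritic cells and endothelium, was lower in Treg cells, at 6.19, 10.4 and 13.2 CPM, against 19.9 to 46.7 CPM (median 31.9) in stromal cells (log2 difference -1.70 ± 0.27, adjusted p = 2.37e-05). Their part in the differences between compartments was not tested.

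Genes of early activation and of cell handling were higher in Treg cells. Of 18 immediate early and stress genes, 14 were higher, 1 was lower and 3 were not called (median log2 difference 1.46). Junb, a subunit of AP-1, had 3196, 3453 and 3592 CPM in Treg cells, against 295 to 857 CPM (median 557) in stromal cells (log2 difference 2.54 ± 0.26, adjusted p = 1.58e-06). Dusp1, a phosphatase of MAP kinases, had 2549, 2641 and 2673 CPM in Treg cells, against 655 to 987 CPM (median 694) in stromal cells (log2 difference 1.81 ± 0.13, adjusted p = 1.64e-09). Nr4a1, induced by T cell receptor signals, had 1107, 1236 and 1237 CPM in Treg cells, against 51.5 to 229 CPM (median 125) in stromal cells (log2 difference 3.21 ± 0.30, adjusted p = 1.97e-06). The exception was Jun, another AP-1 subunit, which was lower in Treg cells, at 258, 344 and 356 CPM, against 489 to 968 CPM (median 689) in stromal cells (log2 difference -1.15 ± 0.20, adjusted p = 7.08e-05). These genes rise with dissociation and sorting as well as with activation, and the part of handling was not tested. Genes of resting T cells were also higher in Treg libraries, 9 of 10, among them Il7r, the interleukin-7 receptor, with 425, 431 and 410.3 CPM in Treg cells and no count in stromal cells (at least 7835-fold higher in Treg cells, adjusted p = 6.53e-15). Of 12 genes of effector T cells, 6 were tested and 5 were higher in Treg cells. Tbx21, the transcription factor of type 1 T cells, had 88.8, 92.7 and 85.9 CPM in Treg cells, against 0 to 0.239 CPM (median 0.0443) in stromal cells. Cd40lg, a helper signal to B cells, had 61.9, 58.1 and 62.1 CPM in Treg cells with no stromal count (at least 1131-fold higher in Treg cells, adjusted p = 8.16e-12). Bcl6, a repressor used by follicular T cells and by other lineages, was lower in Treg cells, at 16.4, 21.0 and 19.3 CPM, against 92.1 to 245 CPM (median 159.5) in stromal cells (log2 difference -3.07 ± 0.32, adjusted p = 1.47e-06).

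Ligand genes leaned to the stroma, and receptor genes were divided near evenly, as were all genes tested. Of all genes tested, 35.1% were higher and 37.8% lower in Treg cells, and the family counts below are to be read against these shares. Genes counted as ligands include secreted inhibitors, such as the WNT inhibitor Sfrp1, and enzymes, such as the ectoenzyme Entpd1. Of 255 ligand genes in 14 families, 252 were in the table and 188 were tested, of which 50 were higher in Treg cells, 119 were lower and 19 were not called (median log2 difference -3.29, or -3.19 with the 22 genes at their floor). Of 259 receptor genes, 225 were tested, with 108 higher, 96 lower and 21 not called (median 0.33). A gene was counted as present in a compartment at 5 CPM or more in each of its libraries. By that rule 34 ligand genes were present in Treg cells alone, 74 in stromal cells alone, 21 in both and 123 in neither. Among receptor genes 72 were present in Treg cells alone, 60 in stromal cells alone, 55 in both and 72 in neither. The libraries of the compartments did not overlap for 153 of 188 tested ligand genes and 195 of 225 receptor genes, against 65.0% of all genes tested.

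Levels of different genes were set side by side per kilobase of exon (RPKM). By mean RPKM, the ligand genes highest in Treg cells were Ltb at 242 ± 21.0 RPKM (SD, n = 3), Areg at 232 ± 23.2 RPKM, Cd48 at 207 ± 3.68 RPKM and Ccl5 at 179 ± 33.2 RPKM. The first pair did not differ beyond their spread. In stromal cells they were Penk at 2276 ± 591 RPKM (SD, n = 6), Ccl11 at 629.9 ± 189 RPKM, Col1a1 at 579 ± 167 RPKM and Col1a2 at 505 ± 92.2 RPKM. Penk stood above the others, and the next 3 lay within their spread. Among receptor genes the highest in Treg cells were Klrg1 at 476 ± 29.0 RPKM and Ifngr1 at 457 ± 26.0 RPKM, and in stromal cells Axl at 239.5 ± 67.7 RPKM and Ifngr1 at 175 ± 24.7 RPKM. Ifngr1, the ligand-binding chain of the interferon-gamma receptor, was thus near the top of both orders. It differed by less than the spread from Klrg1 in Treg cells, and from Axl and the next gene, Tnfrsf1a at 153 ± 11.8 RPKM, in stromal cells. The stromal means pool populations that were called apart in Penk, Ccl11 and Axl. Genes were ranked this way after their values were seen.

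**Figure D2:**
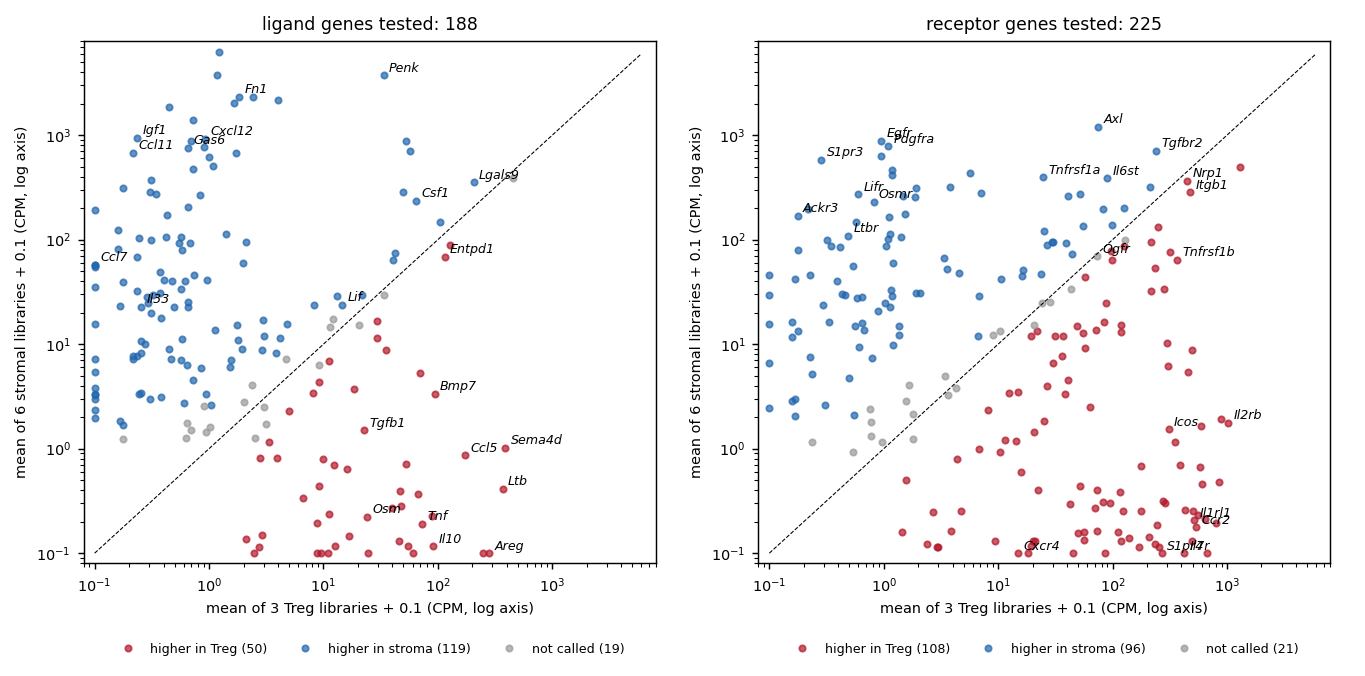
Mean level of each tested ligand gene (left) and receptor gene (right) in the 3 Treg libraries, on the horizontal axis, against the mean of the 6 stromal libraries, on the vertical axis, in CPM plus 0.1 on log axes, coloured by the call. Of 188 ligand genes 50 were higher and 119 lower in Treg cells, and of 225 receptor genes 108 were higher and 96 lower; the dashed line marks equal levels.

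The ligand the series is about, Osm, was a Treg transcript, and both chains of its receptor were higher in stromal cells. Osm (chr11:4236420-4241026, plus strand, mm10) had 22.8, 21.9 and 27.0 CPM in Treg cells, against 0 to 0.478 CPM (median 0) in stromal cells. Every Treg library lay above every stromal library, with log2 difference 7.40 ± 0.52 (adjusted p = 9.55e-10). This difference rested on 7 stromal counts and was 8.70 without VmSC4 library 1 and 9.12 without VmSC5 library 1. Osmr (chr15:6813577-6874969, minus strand) had 0.354, 1.38 and 0.406 CPM in Treg cells, 195, 281 and 275 CPM in VmSC4 and 231, 216 and 181 CPM in VmSC5 (adjusted p = 7.95e-14). Treg cells were thus near 0 for the receptor chain, and the stromal populations overlapped. Il6st (chr13:112464070-112510086, plus strand) had 78.9, 82.1 and 107 CPM in Treg cells, 395, 295 and 417 CPM in VmSC4 and 379, 471 and 358 CPM in VmSC5 (log2 difference -2.11 ± 0.16, adjusted p = 2.58e-09), so Treg cells carried the shared chain at a lower level. Lifr (chr15:7090614-7197489, plus strand), the leukaemia inhibitory factor (LIF) receptor, which pairs with gp130 for LIF and in some species for OSM, had 1.06, 0.231 and 0.203 CPM in Treg cells, 206, 254 and 332 CPM in VmSC4 and 307, 310.3 and 222 CPM in VmSC5 (adjusted p = 3.29e-13). Neither population of stromal cells was called apart from the other in Osmr, Il6st or Lifr. Per kilobase of exon, Osm averaged 10.52 ± 1.19 RPKM in Treg cells (n = 3), and in stromal cells Osmr averaged 19.0 ± 3.40, Lifr 25.2 ± 4.84 and Il6st 34.7 ± 5.33 RPKM (n = 6).

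Among other ligands of the IL-6 family, Clcf1 and Ebi3 were higher in Treg cells and Lif was lower. Of 10 ligand genes 5 were tested, with 3 higher, Osm among them, 1 lower and 1 not called, and of 8 receptor genes 2 were higher and 6 lower in Treg cells. Clcf1, a ligand of the receptor chain Cntfr, had 36.8, 31.4 and 36.3 CPM in Treg cells, against 4.07 to 14.5 CPM (median 9.26) in stromal cells (log2 difference 2.05 ± 0.24, adjusted p = 7.91e-07). Cntfr had 0.177, 0 and 0.203 CPM in Treg cells, against 6.39 to 9.21 CPM (median 7.17) in stromal cells (a stroma-to-Treg ratio of 54.6, with a counting interval of 15.01 to 452, adjusted p = 1.47e-07). Ebi3, a subunit shared by interleukins 27 and 35, had 42.1, 32.5 and 43.4 CPM in Treg cells, against 0 to 0.470 CPM (median 0.133) in stromal cells (adjusted p = 7.72e-12). Lif itself was found in both compartments, with 16.4, 11.1 and 15.8 CPM in Treg cells, against 17.4 to 30.4 CPM (median 24.2) in stromal cells (log2 difference -0.71 ± 0.22, adjusted p = 0.00811). It lost its call when libraries were scaled by their totals (-0.17, adjusted p = 0.492), with the transferred stromal libraries of the series in place of the fresh ones (-0.17, adjusted p = 0.506) and with its OSMf/f Treg libraries in place of the OSM+/+ ones (-0.48, adjusted p = 0.0849). The OSMf/f libraries are those titled Treg.OSM.KO.VAT. On the receptor side, Il27ra, the interleukin-27 receptor, had 206, 211 and 239 CPM in Treg cells, against 20.1 to 46.0 CPM (median 30.7) in stromal cells (log2 difference 2.80 ± 0.14, adjusted p = 1.04e-11). Il11ra1, the interleukin-11 receptor, had 2.30, 3.00 and 5.68 CPM in Treg cells, against 275 to 384 CPM (median 305) in stromal cells (log2 difference -6.44 ± 0.22, adjusted p = 5.4e-14), a level that is uncertain because mice carry near-identical copies of this gene. Il6ra, the binding chain for IL-6, had 66.5, 53.1 and 52.0 CPM in Treg cells, 25.6, 38.7 and 28.1 CPM in VmSC4 and 56.6, 55.7 and 58.1 CPM in VmSC5 (log2 difference 0.45 ± 0.16, adjusted p = 0.0162). The difference was small against VmSC5 (0.01, adjusted p = 0.956 against VmSC5 alone), and the call was lost without Treg library 1, VmSC4 library 1 or 3, or VmSC5 library 2 (adjusted p 0.0523 to 0.134).

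**Figure D3:**
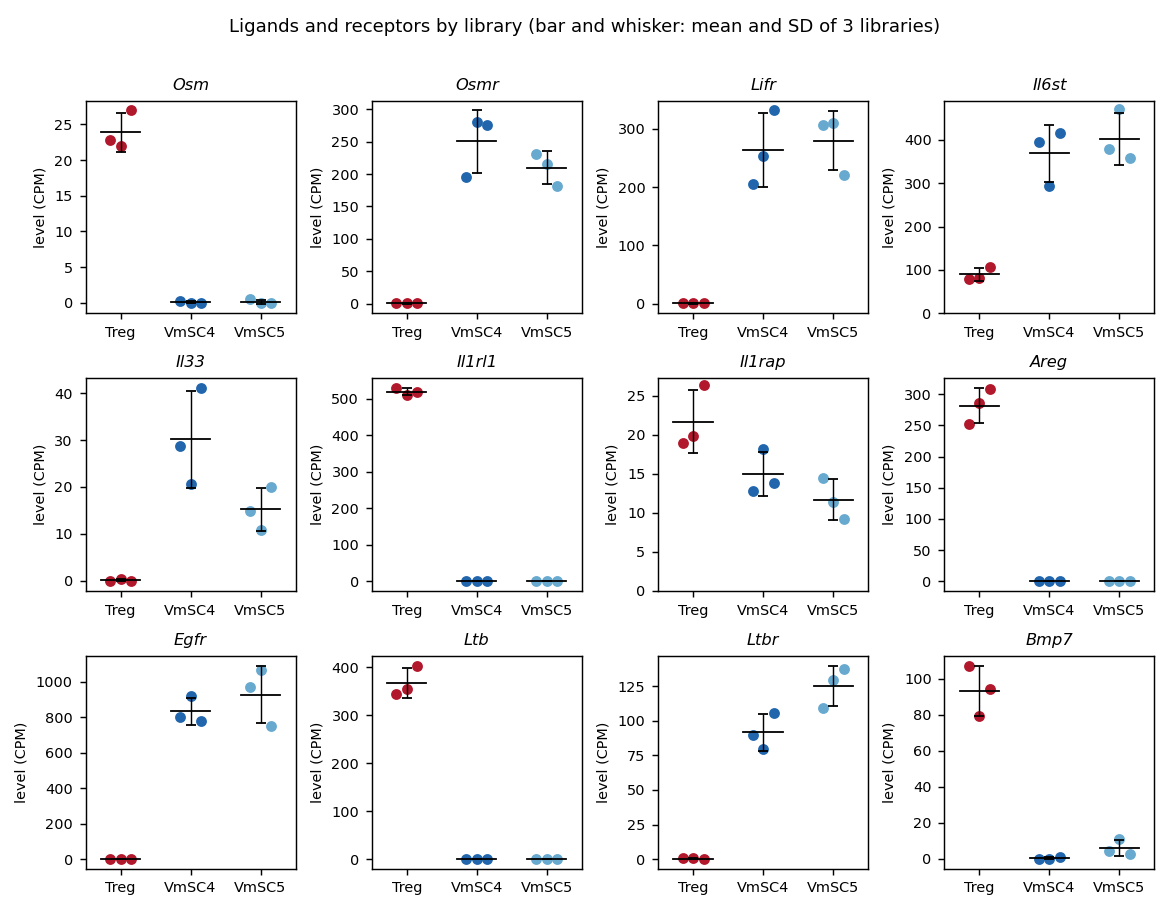
Level in CPM of 12 ligand and receptor genes in each Treg, VmSC4 and VmSC5 library, with the mean as a bar and the SD of 3 libraries as a whisker. Osm, Areg and Ltb lie near 0 in all stromal libraries, Osmr, Lifr, Egfr and Ltbr near 0 in all Treg libraries, and Il6st and Il1rap above 0 in all 9 libraries.

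In the interleukin-1 (IL-1) family the order was the reverse. The 2 tested ligand genes were lower in Treg cells, and of 8 receptor genes 6 were higher and 2 lower. Il33 (chr19:29925114-29960718, plus strand), an alarmin held in nuclei, had 0, 0.461 and 0 CPM in Treg cells, 28.7, 20.6 and 41.1 CPM in VmSC4 and 14.9, 10.8 and 20.0 CPM in VmSC5. Both stromal populations lay above the Treg libraries, with a stroma-to-Treg ratio of 178, with a counting interval of 49.2 to 1471, adjusted p = 1.35e-08, and VmSC5 was not called apart from VmSC4 (log2 difference -0.98 ± 0.33, adjusted p = 0.0704). Il1rl1 (chr1:40429570-40465415, plus strand), its receptor, had 529.5, 510.3 and 519 CPM in Treg cells, against 0 to 0.355 CPM (median 0) in stromal cells (adjusted p = 5.93e-16). The second chain of that receptor, Il1rap, was in both compartments, with 18.9, 19.8 and 26.4 CPM in Treg cells, against 9.17 to 18.1 CPM (median 13.3) in stromal cells (log2 difference 0.71 ± 0.23, adjusted p = 0.00897). The call of Il1rap was lost without Treg library 3 (0.53, adjusted p = 0.0785), against VmSC4 alone (0.54, adjusted p = 0.0778) and with OSMf/f Treg libraries (0.35, adjusted p = 0.363). Its direction turned with the transferred stromal libraries of the series in place of the fresh ones (-1.06, adjusted p = 2.53e-06). Il18, a second stromal ligand, had 4.60, 3.46 and 4.06 CPM in Treg cells, 13.5, 18.7 and 14.3 CPM in VmSC4 and 9.33, 7.13 and 5.00 CPM in VmSC5 (log2 difference -1.37 ± 0.31, adjusted p = 0.000677). It was lower in VmSC5 than in VmSC4 (log2 difference -1.11 ± 0.31, adjusted p = 0.0331). Both chains of its receptor were Treg transcripts. Il18r1 had 68.1, 85.8 and 93.4 CPM in Treg cells, against 0 to 0.976 CPM (median 0) in stromal cells. Il18rap had 146, 156 and 115 CPM in Treg cells, against 0 to 0.239 CPM (median 0) in stromal cells (a Treg-to-stroma ratio of 3862, with a counting interval of 1068 to 31915, adjusted p = 6.35e-14). Sigirr, an inhibitory receptor of the family, averaged 177 ± 20.9 CPM in Treg cells and 0.156 ± 0.251 CPM in stromal cells. A pair of receptors leaned to stroma. Il1r1, the signalling receptor for IL-1, had 0.531, 2.08 and 0.203 CPM in Treg cells, against 66.0 to 105 CPM (median 86.4) in stromal cells. Il18bp, a soluble decoy for interleukin-18, had 6.01, 5.77 and 7.71 CPM in Treg cells, against 8.73 to 16.2 CPM (median 12.01) in stromal cells (log2 difference -0.86 ± 0.27, adjusted p = 0.00933), a call that was lost under library totals (-0.32, adjusted p = 0.302), against VmSC5 alone (-0.67, adjusted p = 0.0598) and with OSMf/f Treg libraries (-0.60, adjusted p = 0.165).

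Areg and Egfr stood in separate compartments. Areg (chr5:91139599-91148432, plus strand), whose product acts on tissue repair, had 252, 285 and 308 CPM in Treg libraries and no count in any of the 6 stromal libraries (at least 5205-fold higher in Treg cells, adjusted p = 2.74e-14). Egfr (chr11:16752203-16918158, plus strand) had 0.707, 0 and 1.83 CPM in Treg cells, 802, 919 and 778 CPM in VmSC4 and 971, 1062 and 747 CPM in VmSC5 (adjusted p = 7.72e-14). The libraries did not overlap in either gene, nor did they in 65.0% of all genes tested. Erbb2, a partner of Egfr without a known ligand of its own, had 0.177, 0.461 and 2.64 CPM in Treg cells, against 38.1 to 74.3 CPM (median 61.6) in stromal cells. Erbb3, a neuregulin receptor, had 15.9, 12.7 and 18.9 CPM in Treg cells and 0 to 1.32 CPM (median 0.454) in stromal cells (adjusted p = 1.4e-07). A further Egfr ligand, Btc (betacellulin), was lower in Treg cells, at 1.95, 5.08 and 1.62 CPM, against 12.1 to 20.6 CPM (median 17.4) in stromal cells.

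Most ligand genes of the tumour necrosis factor (TNF) superfamily were higher in Treg cells, 10 of 14 tested, and 4 were lower. Ltb (lymphotoxin beta) had 343, 355 and 403 CPM in Treg cells, against 0 to 0.892 CPM (median 0.214) in stromal cells (adjusted p = 1.94e-15). Its receptor Ltbr had 0.707, 0.461 and 0 CPM in Treg cells, against 79.6 to 137 CPM (median 108) in stromal cells (adjusted p = 5.43e-13). Tnfsf14, which encodes LIGHT, another ligand of Ltbr, had 46.0, 43.6 and 49.1 CPM in Treg cells, against 0 to 0.658 CPM (median 0.272) in stromal cells. Tnf had 55.9, 76.4 and 86.7 CPM in Treg cells, against 0 to 0.255 CPM (median 0.0480) in stromal cells. Fasl, which triggers cell death through Fas, had 11.1, 6.92 and 9.95 CPM in Treg cells and no stromal count (at least 177-fold higher in Treg cells, adjusted p = 7.84e-08). All 4 of these ligands stood in Treg cells without overlap, and 65.0% of all genes tested did not overlap either. Other ligands were stromal. Tnfsf13b, the B cell survival factor BAFF, had 1.77, 1.61 and 2.23 CPM in Treg cells, against 52.9 to 64.6 CPM (median 60.3) in stromal cells. Eda (ectodysplasin) had 0.884, 0.231 and 0 CPM in Treg cells, against 31.3 to 54.6 CPM (median 39.3) in stromal cells.

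The receptors of TNF split by type. Tnfrsf1a had 19.3, 28.6 and 26.0 CPM in Treg cells, against 343 to 435 CPM (median 402) in stromal cells (log2 difference -4.01 ± 0.16, adjusted p = 3.01e-13). Tnfrsf1b had 361, 349.9 and 382 CPM in Treg cells, 53.6, 48.7 and 54.5 CPM in VmSC4 and 70.7, 74.8 and 80.4 CPM in VmSC5 (log2 difference 2.54 ± 0.10, adjusted p = 4.28e-13). Stromal cells thus had both receptors, the second one higher in VmSC5 than in VmSC4 (log2 difference 0.53 ± 0.13, adjusted p = 0.0174). Tnfrsf18, the costimulatory receptor GITR of Treg cells, averaged 459 ± 21.9 CPM in Treg cells and 5.35 ± 1.69 CPM in stromal cells. Fas and Tnfrsf14, the HVEM receptor of LIGHT, were in both compartments and not called. Fas had 24.9, 24.9 and 35.1 CPM in Treg cells, against 21.7 to 30.5 CPM (median 24.4) in stromal cells (log2 difference 0.17 ± 0.18, adjusted p = 0.385). Tnfrsf14 had 21.0, 20.3 and 19.9 CPM in Treg cells, against 8.06 to 24.8 CPM (median 14.4) in stromal cells (log2 difference 0.47 ± 0.24, adjusted p = 0.0883). Scaled by library totals both were called higher in Treg cells, Fas with 0.71, adjusted p = 0.00134 and Tnfrsf14 with 1.02, adjusted p = 0.000843. Without Treg library 3 the difference of Fas was -0.03, adjusted p = 0.887, and without VmSC5 library 2 Tnfrsf14 was called (0.56, adjusted p = 0.0497). Over the family 10 of 18 receptor genes were higher and 6 lower in Treg cells, against 35.1% and 37.8% of all genes tested.

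Chemokines and their receptors lay on opposite sides. Of 23 tested chemokine genes (35 listed) 7 were higher and 14 lower in Treg cells, while of 20 receptor genes 15 were higher and 4 lower. Cxcl12, which holds lymphocytes and progenitors in tissues, had 1.24, 0 and 1.22 CPM in Treg cells, against 747 to 1169.6 CPM (median 920.0) in stromal cells. Its receptor Cxcr4 had 16.8, 16.1 and 11.4 CPM in Treg cells with no stromal count (at least 275-fold higher in Treg cells, adjusted p = 8.46e-09). Ccl11 (eotaxin) had 0.354, 0 and 0 CPM in Treg cells, 394, 579 and 565 CPM in VmSC4 and 910.3, 747 and 894 CPM in VmSC5, where it was higher (log2 difference 0.73 ± 0.17, adjusted p = 0.0153). Its receptor Ccr3 had 72.0, 81.0 and 103 CPM in Treg cells and no stromal count (at least 1576-fold higher in Treg cells, adjusted p = 3.86e-12). Ccl2, a chemokine for monocytes and T cells, had 0.177, 0 and 0 CPM in Treg cells, 33.8, 74.2 and 92.5 CPM in VmSC4 and 27.9, 100 and 159 CPM in VmSC5. Ccl7, a related chemokine, had no count in Treg cells, 13.7, 46.9 and 35.0 CPM in VmSC4 and 39.5, 71.5 and 139 CPM in VmSC5. Both varied several-fold among stromal libraries of 1 population, and neither was seen above 1 CPM in Treg cells. Their receptor Ccr2 had 563, 509.8 and 524 CPM in Treg cells, against 0 to 0.266 CPM (median 0) in stromal cells. Ccr1, which also binds Ccl7, had 44.4, 50.3 and 55.8 CPM in Treg cells, against 0 to 0.127 CPM (median 0.0470) in stromal cells. Cxcl16, a membrane-bound chemokine, had 1.24, 0.692 and 2.03 CPM in Treg cells, against 97.3 to 135 CPM (median 114) in stromal cells. Its receptor Cxcr6 had 381, 374 and 404 CPM in Treg cells, against 0.127 to 1.41 CPM (median 0.523) in stromal cells (adjusted p = 5.72e-17).

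A few chemokines were Treg transcripts. Ccl5, a ligand of Ccr1 and Ccr3, had 144, 164 and 207 CPM in Treg cells, against 0 to 3.44 CPM (median 0.285) in stromal cells. Cxcl2, a neutrophil attractant, had 95.1, 76.4 and 95.2 CPM in Treg cells, against 0 to 0.509 CPM (median 0.0598) in stromal cells. VmSC5 library 2 held most of the stromal counts of Ccl5. Receptors of stromal cells were of the scavenging kind or for chemerin. Ackr3, which removes Cxcl12, had 0, 0.231 and 0 CPM in Treg cells, 92.3, 50.5 and 65.7 CPM in VmSC4 and 273, 258 and 270.3 CPM in VmSC5, with log2 difference 1.94 ± 0.19, adjusted p = 2.06e-05 for VmSC5 minus VmSC4. Cmklr1, the chemerin receptor, had 0.531, 0 and 0.406 CPM in Treg cells, 52.1, 70.2 and 62.3 CPM in VmSC4 and 99.4, 138 and 93.1 CPM in VmSC5 (log2 difference 0.84 ± 0.20, adjusted p = 0.0155 for VmSC5 minus VmSC4). Both were higher in VmSC5 than in VmSC4 and near 0 in Treg cells.

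**Figure D4:**
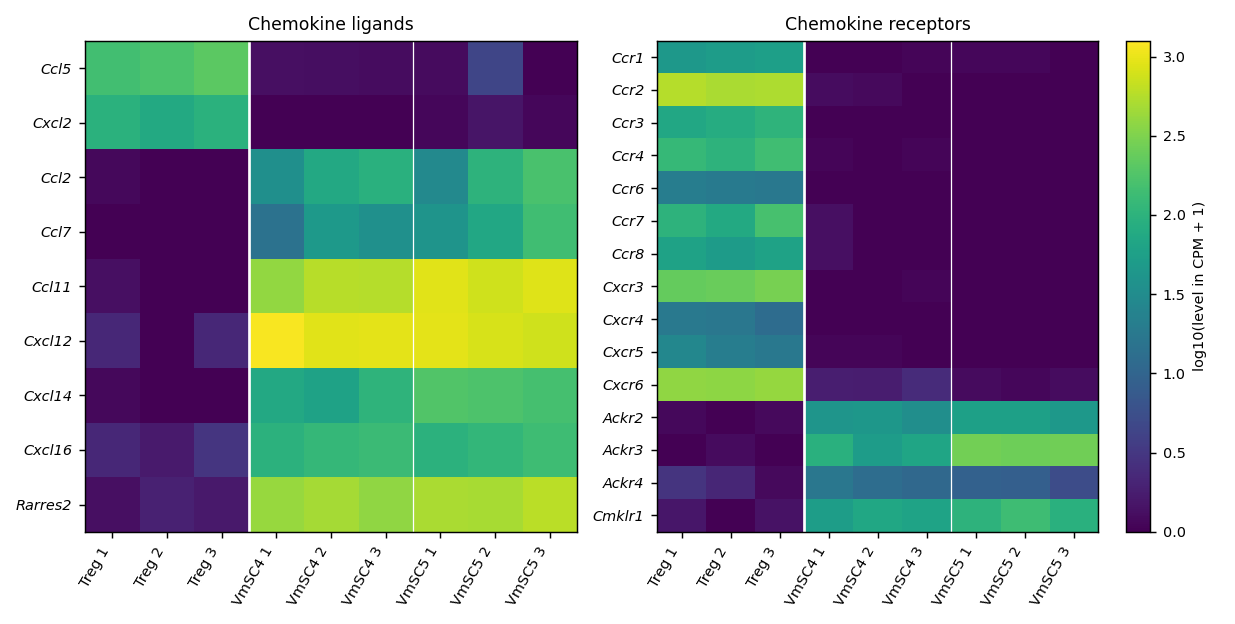
Levels of 9 chemokine genes (left) and 15 receptor genes (right) as log10 of CPM plus 1, 1 column per library, with the 3 Treg libraries on the left of each panel and VmSC4 and VmSC5 to their right. Ccl5 and Cxcl2 and the receptors Ccr1 to Cxcr6 are brighter in Treg columns, although Cxcr4 is dim there. Ccl11, Cxcl12, Ackr3 and Cmklr1 are brighter in stromal columns.

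Among cytokines that act through the common gamma chain, Il15 was stromal and its signalling chains were in Treg cells. Il15, which sustains lymphocytes, had 0, 0.461 and 0 CPM in Treg cells, against 5.85 to 13.8 CPM (median 11.2) in stromal cells (a stroma-to-Treg ratio of 77.3, with a counting interval of 21.3 to 640.1, adjusted p = 2.44e-07). Il2rg, the gamma chain, had 661, 616 and 638 CPM in Treg cells, against 0 to 0.359 CPM (median 0.0694) in stromal cells. Il15ra, the chain that presents interleukin-15, was in both and lower in Treg cells, at 32.0, 17.8 and 38.0 CPM, against 82.6 to 120.1 CPM (median 92.4) in stromal cells (log2 difference -1.69 ± 0.20, adjusted p = 7.96e-07). Il5, an eosinophil factor, had 6.54, 13.6 and 6.70 CPM in Treg cells, against 0.0887 to 0.694 CPM (median 0.303) in stromal cells. Il13ra1, a receptor chain for interleukins 4 and 13, had 0, 0.231 and 0 CPM in Treg cells, against 9.67 to 15.4 CPM (median 13.3) in stromal cells. Il10, a suppressive cytokine of Treg cells, had 119, 81.4 and 70.4 CPM in Treg cells, against 0 to 0.0960 CPM (median 0) in stromal cells (a Treg-to-stroma ratio of 5135, with a counting interval of 920.1 to 202967, adjusted p = 5.31e-13). Its receptor chain Il10ra was likewise a Treg transcript, with 436, 499 and 537 CPM in Treg cells, against 0 to 0.0960 CPM (median 0) in stromal cells. Ifng (interferon gamma) had 6.37, 6.46 and 13.2 CPM in Treg cells and no stromal count (at least 161-fold higher in Treg cells, adjusted p = 2.01e-07). The chains of its receptor leaned apart. Ifngr1 had 1221, 1367 and 1313 CPM in Treg cells, against 383 to 572 CPM (median 523) in stromal cells (log2 difference 1.38 ± 0.13, adjusted p = 3.04e-08). Ifngr2 had 24.2, 19.4 and 36.7 CPM in Treg cells, against 69.1 to 104 CPM (median 91.8) in stromal cells (log2 difference -1.73 ± 0.20, adjusted p = 4.55e-07). Ifnar2, a chain of the type I interferon receptor, averaged 97.8 ± 5.27 CPM in Treg cells and 139 ± 11.7 CPM in stromal cells (log2 difference -0.50 ± 0.11, adjusted p = 0.000735), and its sign turned under library totals (0.04, adjusted p = 0.749). Il17rc, an interleukin-17 receptor chain, was stromal, with 1.95, 1.61 and 0.406 CPM in Treg cells, against 81.2 to 143 CPM (median 103) in stromal cells.

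The 3 forms of transforming growth factor beta (TGF-beta) were divided, Tgfb1 in Treg cells and Tgfb2 and Tgfb3 in stroma. Tgfb1 had 24.6, 28.4 and 14.2 CPM in Treg cells, against 0.598 to 2.17 CPM (median 1.37) in stromal cells (log2 difference 4.00 ± 0.35, adjusted p = 1.71e-08). Tgfb2 had 0.177, 0.923 and 0.812 CPM in Treg cells, 68.0, 42.4 and 65.5 CPM in VmSC4 and 37.7, 27.3 and 34.6 CPM in VmSC5 (log2 difference -0.82 ± 0.23, adjusted p = 0.0355 for VmSC5 minus VmSC4). Tgfb3 had 1.06, 1.15 and 3.86 CPM in Treg cells, against 63.6 to 127 CPM (median 90.6) in stromal cells. No library of 1 compartment reached the range of the other in these genes, as in 65.0% of all genes tested. The receptor chain Tgfbr1 was higher in Treg cells. It had 47.8, 72.7 and 51.8 CPM in Treg cells, against 6.21 to 13.4 CPM (median 8.94) in stromal cells (log2 difference 2.66 ± 0.22, adjusted p = 8.74e-09). Tgfbr2, the chain that binds the ligand first, was lower, with 282, 243 and 199.97 CPM in Treg cells, against 439 to 987 CPM (median 737) in stromal cells (log2 difference -1.49 ± 0.14, adjusted p = 5.9e-08). Tgfbr3 (betaglycan), a co-receptor, averaged 5.58 ± 1.81 CPM in Treg cells and 434 ± 54.4 CPM in stromal cells. Itgav, an integrin chain that frees latent TGF-beta, had 95.3, 90.4 and 77.6 CPM in Treg cells, against 16.7 to 31.0 CPM (median 25.0) in stromal cells (log2 difference 1.82 ± 0.18, adjusted p = 7.18e-08). Over the family 3 of 13 ligand genes and 4 of 14 receptor genes were higher in Treg cells, and 10 and 8 were lower.

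One bone morphogenetic protein (BMP) was a Treg transcript. Bmp7, which promotes brown adipocyte formation in mice, had 107, 79.1 and 94.0 CPM in Treg cells, 0.177, 0 and 1.03 CPM in VmSC4 and 4.54, 10.8 and 2.78 CPM in VmSC5. The libraries did not overlap (log2 difference 5.87 ± 0.40, adjusted p = 5.08e-09), and without VmSC4 library 3 the difference was 6.80. Bmp7 was also higher in VmSC5 than in VmSC4 (adjusted p = 0.00341). The receptor chains Acvr1 and Bmpr2 were lower in Treg cells. Acvr1 had 2.12, 1.15 and 0 CPM in Treg cells, against 19.8 to 40.5 CPM (median 25.9) in stromal cells. Bmpr2 had 15.9, 18.5 and 14.0 CPM in Treg cells, against 32.4 to 61.2 CPM (median 42.5) in stromal cells (log2 difference -1.47 ± 0.20, adjusted p = 3.47e-06). Gdf10, a BMP-like ligand, had 0.354, 0.692 and 0 CPM in Treg cells, against 1656 to 2229.8 CPM (median 1835) in stromal cells. Bmp1, a protease of the matrix and not a BMP by structure, averaged 0.972 ± 1.36 CPM in Treg cells and 509.9 ± 127 CPM in stromal cells.

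Growth factor genes were stromal, 21 of 23 tested, with 1 higher in Treg cells. Igf1, insulin-like growth factor 1, had 0, 0 and 0.406 CPM in Treg cells, 1792, 1451 and 1321 CPM in VmSC4 and 401, 383 and 277 CPM in VmSC5. VmSC5 libraries lay below VmSC4 libraries (log2 difference -2.10 ± 0.18, adjusted p = 7.46e-06) and both far above Treg libraries (a stroma-to-Treg ratio of 7721, with a counting interval of 2137 to 63759, adjusted p = 1.04e-14). Its receptor Igf1r was in both compartments, with 21.4, 25.1 and 24.8 CPM in Treg cells, against 30.5 to 58.8 CPM (median 48.4) in stromal cells (log2 difference -0.96 ± 0.18, adjusted p = 0.000108). Gas6, a ligand of the receptor tyrosine kinase Axl, had 0, 0.461 and 1.22 CPM in Treg cells, 1052, 816 and 994 CPM in VmSC4 and 485, 552 and 651 CPM in VmSC5 (log2 difference -0.76 ± 0.18, adjusted p = 0.0192 for VmSC5 minus VmSC4). Axl had 76.2, 67.1 and 80.8 CPM in Treg cells, against 799.6 to 1683 CPM (median 1141) in stromal cells (log2 difference -3.97 ± 0.16, adjusted p = 3.03e-13), so Treg cells held a lower level of this receptor. Of 23 receptor genes 2 were higher and 17 lower in Treg cells.

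Genes of WNT and Notch ligands, counted together with secreted WNT inhibitors such as Sfrp1 and Dkk2, were stromal as well, 15 of 18. So were 12 of 17 receptors. Wnt5a, a ligand of the non-canonical branch, had 0, 0.231 and 0.406 CPM in Treg cells, against 81.5 to 122 CPM (median 98.2) in stromal cells. Sfrp1, a secreted inhibitor of WNT, had 0.531, 0.461 and 0 CPM in Treg cells, against 110.1 to 309.6 CPM (median 137) in stromal cells, and the receptor Fzd4 had 0.884, 0.461 and 1.62 CPM in Treg cells, against 90.4 to 113 CPM (median 102) in stromal cells. Jag1, a Notch ligand, had 3.89, 6.69 and 3.65 CPM in Treg cells, against 12.7 to 20.0 CPM (median 14.5) in stromal cells (log2 difference -1.71 ± 0.29, adjusted p = 4.45e-05). Notch receptors were in both compartments. Notch2 had 134, 125 and 122 CPM in Treg cells, against 155 to 279 CPM (median 188) in stromal cells (log2 difference -0.62 ± 0.12, adjusted p = 0.000194), a call lost under library totals (-0.07, adjusted p = 0.578). Notch1 had 139, 124 and 121 CPM in Treg cells, against 69.0 to 146 CPM (median 91.1) in stromal cells and was not called (log2 difference 0.38 ± 0.18, adjusted p = 0.0608). Notch1 was called higher in Treg cells under library totals (0.93, adjusted p = 0.000131), without VmSC4 library 2 (0.45, adjusted p = 0.0238) and without VmSC5 library 3 (0.42, adjusted p = 0.0389).

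Receptors of costimulation and inhibition were Treg transcripts, 13 of 14 tested. Of 16 ligand genes 8 were higher and 6 lower in Treg cells, against 35.1% and 37.8% of all genes tested. Ctla4, the inhibitory receptor for CD80 and CD86, had 534, 602 and 539 CPM in Treg cells, against 0 to 0.384 CPM (median 0.0637) in stromal cells. Icos, a costimulatory receptor, had 317, 327 and 282 CPM in Treg cells, against 0.382 to 2.98 CPM (median 1.16) in stromal cells. Its ligand Icosl was in both, with 14.0, 10.2 and 15.02 CPM in Treg cells, against 20.3 to 34.9 CPM (median 28.5) in stromal cells (log2 difference -1.12 ± 0.21, adjusted p = 0.000126). With transferred stromal libraries in place of fresh ones the difference of Icosl turned to 0.77, adjusted p = 0.0118. Tigit, an inhibitory receptor, had 329.7, 267 and 273 CPM in Treg cells, against 0 to 0.382 CPM (median 0.199) in stromal cells. Nectin2, one of its ligands, had 0.177, 0 and 0.406 CPM in Treg cells, against 16.6 to 34.5 CPM (median 23.4) in stromal cells (a stroma-to-Treg ratio of 127, with a counting interval of 43.4 to 617, adjusted p = 6.07e-10). Cd48, a ligand of the lymphocyte receptor CD244, had 245, 242 and 251 CPM in Treg cells and no stromal count (at least 4567-fold higher in Treg cells, adjusted p = 2.56e-14). Cd274, which encodes PD-L1, had 60.1, 83.3 and 63.5 CPM in Treg cells, against 4.41 to 7.64 CPM (median 4.83) in stromal cells (log2 difference 3.73 ± 0.20, adjusted p = 1.56e-11). Cd47, which restrains phagocytes through Sirpa, was in both compartments, with 429.9, 467 and 472 CPM in Treg cells, against 284 to 489 CPM (median 382) in stromal cells (log2 difference 0.23 ± 0.14, adjusted p = 0.153). It was called higher in Treg cells under library totals (0.78, adjusted p = 9.48e-05). Sirpa, its receptor, had 0.354, 0.461 and 0.609 CPM in Treg cells, against 107 to 197 CPM (median 143) in stromal cells. Lgals9 (galectin 9) had 215, 194 and 206 CPM in Treg cells, against 302 to 405 CPM (median 353) in stromal cells (log2 difference -0.77 ± 0.11, adjusted p = 9.41e-06). Cd55, an inhibitor of complement and ligand of Adgre5, had 45.8, 30.0 and 46.3 CPM in Treg cells, against 48.9 to 87.2 CPM (median 58.3) in stromal cells (log2 difference -0.63 ± 0.17, adjusted p = 0.00401). Both lost their call under library totals, Lgals9 with -0.23, adjusted p = 0.0717 and Cd55 with -0.08, adjusted p = 0.664. Adgre5, the adhesion receptor CD97, had 277, 276 and 287 CPM in Treg cells, against 18.9 to 64.0 CPM (median 29.1) in stromal cells (log2 difference 3.13 ± 0.19, adjusted p = 4.71e-10).

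Adhesion followed the same division, matrix ligands in stroma and integrins of lymphocytes in Treg cells. Of 21 ligand genes 15 were lower in Treg cells, and of 27 receptor genes 19 were higher and 7 lower. Vcam1, the vascular cell adhesion molecule, had 1.06, 0.923 and 0.203 CPM in Treg cells, against 205 to 334 CPM (median 267) in stromal cells. Itga4, the integrin chain that binds it and fibronectin, had 599, 604 and 533 CPM in Treg cells, against 0.239 to 1.06 CPM (median 0.546) in stromal cells (adjusted p = 5.72e-17). Itgb7, which pairs with Itga4 in gut-homing lymphocytes, had 1195, 857 and 633 CPM in Treg cells, against 0.833 to 2.99 CPM (median 1.77) in stromal cells. Itga6, a chain of laminin receptors, had 37.0, 48.7 and 40.6 CPM in Treg cells, against 0 to 0.382 CPM (median 0.163) in stromal cells. Lama2, a laminin chain, had 0.354, 0.923 and 1.42 CPM in Treg cells, against 425 to 804 CPM (median 643) in stromal cells. Selplg, the P-selectin ligand of leukocytes, had 837, 779 and 955 CPM in Treg cells, against 0 to 0.694 CPM (median 0.367) in stromal cells. Itga4, Itgb7, Itga6 and Selplg did not overlap between compartments, nor did 65.0% of all genes tested.

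The collagen genes Col1a1, Col1a2 and Col4a1 were lower in Treg cells. Col1a1 had 0.707, 0.692 and 1.83 CPM in Treg cells and 1671 to 4686 CPM (median 4085) in stromal cells. Col1a2 had 0.531, 0.231 and 2.64 CPM in Treg cells and 4643 to 8057 CPM (median 6267) in stromal cells. Col4a1 had 0.707, 2.08 and 1.83 CPM in Treg cells and 1117 to 3153 CPM (median 2029) in stromal cells. Of the collagen receptors, Itga2 was a Treg transcript, with 24.2, 20.3 and 17.3 CPM in Treg cells, against 0.717 to 2.22 CPM (median 1.28) in stromal cells (log2 difference 3.94 ± 0.32, adjusted p = 5.63e-09). Ddr2, a kinase activated by collagen, was stromal, with 0.354, 0.461 and 2.44 CPM in Treg cells, against 364 to 567 CPM (median 464) in stromal cells. Itga1 had 17.5, 21.0 and 19.5 CPM in Treg cells, 5.41, 6.81 and 11.5 CPM in VmSC4 and 19.4, 15.5 and 13.3 CPM in VmSC5 (log2 difference 0.78 ± 0.25, adjusted p = 0.0107), and against VmSC5 alone 0.26, adjusted p = 0.435. Itga5, the fibronectin receptor chain, had 1.06, 0.231 and 4.06 CPM in Treg cells, against 177 to 331 CPM (median 259.6) in stromal cells. Thbs1 (thrombospondin 1), which binds CD47, had 0.354, 0 and 0.609 CPM in Treg cells, 28.5, 52.6 and 84.3 CPM in VmSC4 and 94.2, 176 and 203 CPM in VmSC5. Icam2, an adhesion molecule for LFA-1, had 45.1, 44.1 and 52.4 CPM in Treg cells, against 0 to 0.282 CPM (median 0.208) in stromal cells.

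Genes of guidance molecules were mostly lower in Treg cells. Of 16 tested ligand genes 3 were higher, 11 lower and 2 not called in Treg cells, and of 18 receptor genes 4 were higher, 11 lower and 3 not called. Sema4d and Sema4a were among the higher ones. Sema4d had 418, 372 and 377 CPM in Treg cells, against 0 to 2.13 CPM (median 0.850) in stromal cells. Plxnb2, a receptor for it, had 3.71, 7.38 and 9.74 CPM in Treg cells, against 238 to 345 CPM (median 258) in stromal cells (log2 difference -5.35 ± 0.23, adjusted p = 1.02e-12). Sema4a had 55.5, 48.0 and 53.0 CPM in Treg cells, against 0.139 to 1.69 CPM (median 0.474) in stromal cells. Plxnd1, one of its receptors, had 24.1, 20.8 and 29.8 CPM in Treg cells, against 96.6 to 153 CPM (median 118) in stromal cells (log2 difference -2.27 ± 0.15, adjusted p = 4.06e-10). Slit3 averaged 0.811 ± 0.839 CPM in Treg cells and 773 ± 182 CPM in stromal cells and Ntn1 0.472 ± 0.817 CPM in Treg cells and 105 ± 13.02 CPM in stromal cells. Ephb6, an ephrin receptor without kinase activity, had 46.3, 47.1 and 53.6 CPM in Treg cells, against 10.0 to 22.0 CPM (median 14.2) in stromal cells (log2 difference 1.72 ± 0.21, adjusted p = 9.49e-07).

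Of 22 tested genes that make lipid mediators, adenosine or neuropeptides, 3 were higher, 14 lower and 5 not called in Treg cells (median log2 difference -3.65). Of 35 receptor genes 18 were higher, 15 lower and 2 not called. Over all genes tested 35.1% were higher and 37.8% lower. Penk, the precursor of enkephalins, was listed as a gene of visceral fat Treg cells but was far lower there, with 45.1, 28.8 and 26.2 CPM, against 4891, 4763 and 3984 CPM in VmSC4 and 3119, 2859.8 and 2701 CPM in VmSC5 (log2 difference -6.76 ± 0.22, adjusted p = 2.3e-14). Ogfr, an enkephalin receptor, was in both, with 78.5, 65.7 and 76.7 CPM in Treg cells, against 55.7 to 85.8 CPM (median 69.9) in stromal cells, and was not called (log2 difference 0.11 ± 0.13, adjusted p = 0.459). It was called higher in Treg cells under library totals (0.65, adjusted p = 0.000125). Agt (angiotensinogen) had 1.77, 0 and 0 CPM in Treg cells, 1421, 1146 and 1072 CPM in VmSC4 and 497, 568 and 597 CPM in VmSC5. Penk and Agt were both lower in VmSC5 than in VmSC4 (log2 difference -0.65 ± 0.17, adjusted p = 0.0283 and log2 difference -1.13 ± 0.23, adjusted p = 0.00798). Calca, which encodes calcitonin and CGRP, had 12.7, 10.4 and 14.0 CPM in Treg cells, against 0.139 to 1.25 CPM (median 0.595) in stromal cells. Receptors for sphingosine 1-phosphate differed in kind. S1pr1, which lets lymphocytes leave tissues, had 321, 279.6 and 299.9 CPM in Treg cells, against 1.79 to 21.4 CPM (median 9.59) in stromal cells (log2 difference 5.44 ± 0.17, adjusted p = 8.93e-15). S1pr3 had 0.354, 0 and 0.203 CPM in Treg cells, against 425 to 748 CPM (median 567) in stromal cells (a stroma-to-Treg ratio of 2961, with a counting interval of 1013 to 14357, adjusted p = 1.59e-15). Ltb4r1, the leukotriene B4 receptor, had 276, 251 and 297 CPM in Treg cells, against 0 to 0.417 CPM (median 0.208) in stromal cells. P2rx4, an ATP-gated channel, had 48.5, 51.4 and 54.6 CPM in Treg cells, against 257 to 291 CPM (median 267) in stromal cells (log2 difference -2.40 ± 0.12, adjusted p = 1e-11).

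Pairs of ligand and receptor were counted over a list of 165 pairs with 139 ligands. A pair was counted when its ligand was present in 1 compartment and called higher there, and all chains of its receptor were present in the other. From Treg to stroma 16 pairs with 12 ligands met this. In 8 of them the receptor was not also complete in Treg cells: Osm with Osmr and Il6st, Osm with Lifr and Il6st, Clcf1 with Cntfr, Lifr and Il6st, Ltb with Ltbr, Tnfsf14 with Ltbr, Areg with Egfr, Bmp7 with Acvr1 and Bmpr2, and Sema4d with Plxnb2. Osm was counted with both receptors of the list, although its receptor in the mouse is Osmr with Il6st and Lifr serves it in some species only. In the other 8 Treg cells had the receptor too: Ifng with Ifngr1 and Ifngr2, Tnf with Tnfrsf1a and with Tnfrsf1b, Tnfsf14 with Tnfrsf14, Fasl with Fas, Tgfb1 with Tgfbr1 and Tgfbr2, and Sema4a with Nrp1 and with Plxnd1. From stroma to Treg cells 27 pairs with 23 ligands met the rule, and in 15 the receptor was complete in Treg cells alone. These were Il33 with Il1rl1 and Il1rap, Il18 with Il18r1 and Il18rap, Il15 with Il15ra, Il2rb and Il2rg, Ccl2 and Ccl7 with Ccr2, Ccl7 with Ccr1, Ccl11 with Ccr3, Cxcl12 with Cxcr4, Cxcl16 with Cxcr6, Icosl with Icos, Nectin2 with Tigit, and the integrin pairs of Vcam1, Fn1, Lama2 and Col1a1.

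The other 12 had receptors in both compartments: Tgfb2 and Tgfb3 with Tgfbr1 and Tgfbr2, Igf1 with Igf1r, Gas6 with Axl, Jag1 with Notch1 and with Notch2, Thbs1 with Cd47, Cd55 with Adgre5, Fn1 with Itgav and Itgb1, Col1a1 and Col4a1 with Itga1 and Itgb1, and Penk with Ogfr. At a minimum of 20 CPM in place of 5, the counts were 10 from Treg to stroma and 15 from stroma to Treg. At a minimum of 1 CPM they were 20 and 40. The counts describe transcripts in sorted cells of separate preparations and say nothing of protein or of contact.

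A number of genes stood against the list they belong to. Pparg (chr6:115360951-115490399, plus strand), the transcription factor of adipocytes and of visceral fat Treg cells, is on stromal lists and on a Treg list. It had 34.3, 30.9 and 36.7 CPM in Treg cells, 20.1, 19.1 and 23.5 CPM in VmSC4 and 28.5, 23.7 and 12.50 CPM in VmSC5, so every Treg library lay above every stromal library (log2 difference 0.68 ± 0.22, adjusted p = 0.0104). With the OSMf/f Treg libraries of the series in place of the OSM+/+ ones the difference was 0.22, adjusted p = 0.511. The stromal cells came from Pparg-Tdt mice, and the part of that genotype in the level of Pparg was not tested. Thy1, a marker of fibroblasts that T cells share, had 146, 127 and 144 CPM in Treg cells, 1.15, 0.768 and 0.752 CPM in VmSC4 and 55.8, 58.8 and 67.6 CPM in VmSC5. It was near 0 in VmSC4 and higher in Treg cells than in VmSC5 alone (log2 difference 1.20, adjusted p = 2.41e-06). Against the mean of both populations the log2 difference was 4.23 ± 0.15, adjusted p = 6.99e-14, and with stromal libraries as 1 group it was not called (2.19, adjusted p = 0.163). Dpp4, the peptidase that names the progenitors and marks activated T cells, had 45.1, 46.8 and 33.3 CPM in Treg cells, 1.95, 1.82 and 3.103 CPM in VmSC4 and 19.4, 19.5 and 21.8 CPM in VmSC5 (log2 difference 2.61 ± 0.20, adjusted p = 3.89e-09). The same order, Treg cells above VmSC5 and VmSC5 above VmSC4, held for Thy1, Dpp4 and Bmp7, and in the transferred stromal libraries Dpp4 turned direction (-0.80, adjusted p = 1.67e-05). Icam1, a marker of committed preadipocytes, had 118, 138 and 126 CPM in Treg cells, 60.05, 68.7 and 76.7 CPM in VmSC4 and 94.7, 106 and 131 CPM in VmSC5 (log2 difference 0.55 ± 0.13, adjusted p = 0.00118). Treg cells and VmSC5 overlapped in it, and against VmSC5 alone the difference was 0.20, adjusted p = 0.247. Itgb1, the beta chain of many integrins, had 575, 457 and 389 CPM in Treg cells, against 248 to 357 CPM (median 268) in stromal cells (log2 difference 0.74 ± 0.14, adjusted p = 0.000159).

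Besides Penk, the Treg genes that were lower in Treg cells were Nt5e, Lgals1, Nfil3, Dgat2 and Cd36. Nt5e, the ectoenzyme CD73, had 88.8, 128 and 94.4 CPM in Treg cells, 229, 191 and 204 CPM in VmSC4 and 98.3, 102 and 63.3 CPM in VmSC5 (log2 difference -0.38 ± 0.16, adjusted p = 0.0414). Its level was higher in VmSC4 than in both other groups, and its sign turned against VmSC5 alone (0.24, adjusted p = 0.258) and under library totals (0.16, adjusted p = 0.358). The call was also lost without Treg library 1 or 3 or VmSC5 library 1 or 2, at adjusted p between 0.0527 and 0.165. Lgals1 (galectin 1) had 548, 529 and 669 CPM in Treg cells, against 592 to 1243 CPM (median 787) in stromal cells (log2 difference -0.49 ± 0.14, adjusted p = 0.0055), and its sign turned under library totals (0.05, adjusted p = 0.74). Nfil3, a basic leucine zipper factor, had 35.0, 18.2 and 12.2 CPM in Treg cells, against 31.8 to 49.3 CPM (median 37.6) in stromal cells (log2 difference -0.82 ± 0.25, adjusted p = 0.0074). Dgat2, an enzyme of triglyceride synthesis, had 7.07, 5.31 and 3.05 CPM in Treg cells, against 6.50 to 15.5 CPM (median 10.7) in stromal cells (log2 difference -1.03 ± 0.30, adjusted p = 0.00551). These 2 kept their sign but not their call under library totals, with -0.28, adjusted p = 0.317 and -0.49, adjusted p = 0.153. Cd36, a fatty acid carrier, had 1.24, 5.08 and 3.45 CPM in Treg cells, 118, 162 and 76.0 CPM in VmSC4 and 14.9, 20.6 and 7.64 CPM in VmSC5 (adjusted p = 2.2e-06). It was lower in VmSC5 than in VmSC4 (log2 difference -3.04 ± 0.37, adjusted p = 0.00031).

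**Figure D5:**
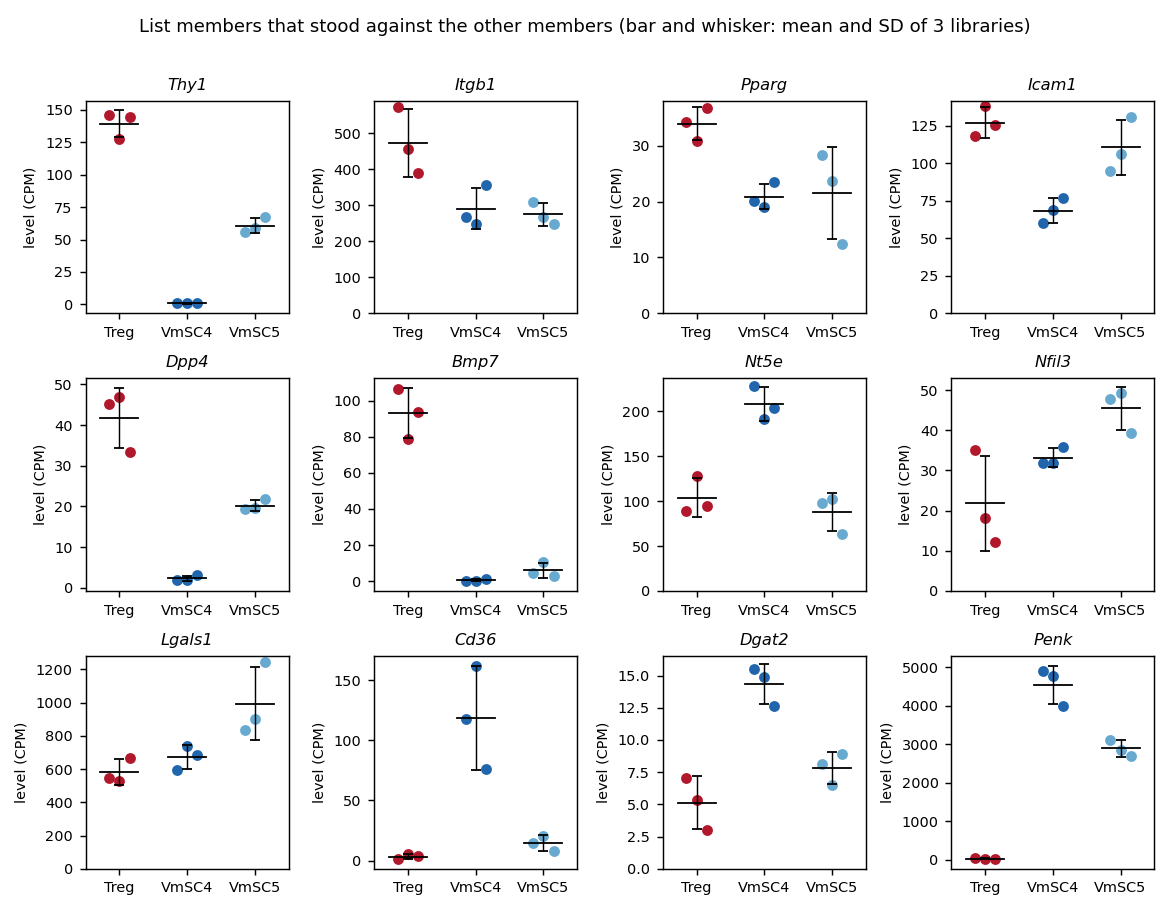
Level in CPM of 12 genes that stood against their list, in each Treg, VmSC4 and VmSC5 library, with the mean as a bar and the SD of 3 libraries as a whisker. Thy1, Dpp4 and Bmp7 are highest in Treg cells and lowest in VmSC4, Nt5e, Cd36, Dgat2 and Penk are highest in VmSC4, and Pparg lies between 12.50 and 36.7 CPM in all 9 libraries.

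The largest differences were sought among called genes of at least 100 CPM on average in 1 compartment whose libraries did not overlap. Upward in Treg cells the 10 were Ptprc, Lcp1, Klrg1, Il7r and 6 further genes of lymphocytes. Rac2, a small GTPase of blood cells, had 1436, 1387 and 1485 CPM in Treg cells, against 0 to 0.0887 CPM (median 0) in stromal cells (a Treg-to-stroma ratio of 80168, with a counting interval of 14387 to 3166600.0, adjusted p = 1.33e-16). Cd53, a tetraspanin of leukocytes, had 841, 897 and 827 CPM in Treg cells, against 0 to 0.188 CPM (median 0) in stromal cells (a Treg-to-stroma ratio of 23759.6, with a counting interval of 6576 to 196212, adjusted p = 4.6e-16). Gimap3 and Gimap1, GTPases of lymphocyte survival, had 1279, 1321 and 1446 CPM and 369, 363 and 387 CPM in Treg cells, with at most 0.470 CPM of Gimap3 and no count of Gimap1 in stromal cells. Trbc2 and Cd3d, chains of the T cell receptor complex, had 399.5, 403 and 450.5 CPM and 361, 370.2 and 368 CPM in Treg cells, with no stromal count. The level of Trbc2 is uncertain, because Trbc1 is a close copy and the handling of multi-mapping reads is not given in the sources used here. Downward, 9 of the 10 genes had no count in any Treg library. Mmp2, a gelatinase, had 2451 to 3541 CPM (median 2759) in stromal cells (at least 13777-fold lower in Treg cells, adjusted p = 3.9e-15). Plpp3, a lipid phosphatase, had 1459 to 2191 CPM (median 1968) in stromal cells (at least 9575-fold lower in Treg cells, adjusted p = 8.93e-15). The matrix and secreted proteins Htra1, Srpx, Cilp, Lrrc17, Lbp and Spon2 and the globin Cygb were at least 2249-fold to at least 3368-fold lower in Treg cells. Efemp1, a fibulin, had 0, 0.231 and 0 CPM in Treg cells and 1465 to 2059 CPM (median 1820.0) in stromal cells, a stroma-to-Treg ratio of 27012, with a counting interval of 4848 to 1066940.0, adjusted p = 1.07e-15.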

How the data were processed

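Gene expression was measured by polyA RNA-seq in 9 libraries of 1000 sorted cells. The authors deposited 1 table of raw counts for 55011 genes, of which 43853 had a count in at least 1 of the 42 libraries of the series. Per the submitters' processing notes reads were aligned with STAR 2.7.3a to mm10 and counted with featureCounts. The annotation release, strand setting and treatment of multi-mapping reads are not given in the sources used here. Libraries were grouped by their sample titles. Genes passed edgeR's filterByExpr with a minimum count of 10, which left 15592, and were fitted in edgeR 4.0.16 (R 4.3.3) with TMM factors and 3 groups by the quasi-likelihood F test; the contrast was Treg minus the mean of the VmSC4 and VmSC5 coefficients. P-values were adjusted by the Benjamini-Hochberg method over all genes tested. The same fit gave VmSC5 minus VmSC4. Total counts ran from 3341231 to 12514783, and intervals and floors cover counting error only, since reads are not independent molecules. Symbols were placed on mm10 through GENCODE M21, in which 52830 of the genes matched 1 gene, and exon lengths for RPKM were taken from it. Only the edgeR fit was run on simulated counts. These held few changed genes, balanced in direction, so they did not test the scaling where most genes differ. The steps for lists, pairs, bounds, intervals, RPKM and promoters were not run on simulated data.

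The comparison, its 21 lists with 274 genes, the 14 families with 513 genes and the 165 pairs were chosen with earlier results of these data known; 4 listed genes were not in the table. Genes were named by rule: the members of counted pairs, the top 3 tested genes of each list by level, called or not, the list members that stood against their list, up to 2 called genes with the highest level in each compartment per family and role, and the 10 largest differences in each direction. The narrowing of the families to these genes was made after values were seen, as were the limit of 50 counts below which a fold is printed for Osm alone or as a bound or counting ratio, the ranking by RPKM and the scaling by library totals. Alternatives were RLE factors, library totals, DESeq2 1.42.0, no filter on low counts, the replicate number as a block, the stromal libraries as 1 group, each population alone, transferred stromal libraries or OSMf/f Treg libraries in place of those used, counts thinned to the lowest total, each library left out, and minimum levels of 1 CPM, 20 CPM and 1 RPKM for pairs. A few genes that the naming rule picks are not reported here. No column of the table was without a sample.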

Additional observations from a re-analysis of the deposited data

Results flagged for a closer look

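Among the 6 stromal libraries, the highest or lowest was tested for standing apart (Dixon's ratio at the 95% level) in 210 genes, and 12 gave a library that did; chance gives such a library in about 1 in 20 genes. The largest was Ighm in VmSC4 library 2, at 380.0 CPM, against 21.4 CPM in the nearest other stromal library. VmSC4 library 2 was also the highest for Il15ra, at 120.1 CPM (next 93.9), and for Lrrc17, at 615 CPM (next 500.2), and the lowest for Col1a1, at 1671 CPM (next 3821). VmSC4 library 1 was the highest for Emcn, at 15.3 CPM, Il2rb, at 3.81 CPM, and Sema4a, at 1.69 CPM. VmSC5 library 2 was the highest for Ccl5, at 3.44 CPM, and Cd274, at 7.64 CPM, VmSC5 library 1 for Gata3, at 1.55 CPM, and VmSC5 library 3 for Acta2, at 36.1 CPM, and Mmp2, at 3541 CPM.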

How the results depend on the processing

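The comparison confounds cell type with genotype and preparation, and folds of genes under 50 counts in 1 compartment rest on few counts, those of Lyz2, Csf1r, Cd68 and Alas2 below among them. The number of called genes lay between 9986 (counts thinned) and 13696 (no filter on low counts), against 11374. Leaving out 1 library gave 11005 to 11815 called genes and log2 differences of Osm between 7.08 and 9.12. Osm was lower in thinned counts, at 6.617, and against VmSC5 alone, at 7.011. With the OSMf/f Treg libraries, whose titles name a knockout (KO) of OSM, the log2 difference of Osm was 5.875. Osm was still called higher in Treg cells there (adjusted p = 7.47e-06). Called markers of other cell types numbered 28 without the filter on low counts, against 17. Pairs numbered 10 from Treg to stroma and 15 from stroma to Treg at a minimum of 20 CPM, and 20 and 40 at a minimum of 1 CPM, against 16 and 27. The replicate block gave 11114 called genes and made Notch1 called (adjusted p = 0.0383); the deviations of libraries that share a number correlated between -0.0527 and 0.029, so the numbers were not taken to pair libraries. Of 4193 results of 210 named genes under 20 alternatives, 4054 kept their direction and their side of the threshold. Most of these genes were named for their level or call, and most alternatives reuse the same libraries. This count therefore does not measure how stable the comparison is.

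Signs turned for 20 named genes, and the cause was not tested. With transferred stromal libraries the log2 difference was -1.06 for Il1rap, -0.36 for Fas, -0.11 for Lrrc32, -0.066 for Nrp1, 0.77 for Icosl, -0.34 for Cd47, -0.93 for Icam1, -0.074 for Entpd1, 1.89 for Lyz2, -0.75 for Cd68, 1.43 for Nt5e, 0.072 for Nfil3, 0.37 for Lgals1 and -0.80 for Dpp4. With OSMf/f Treg libraries it was -0.047 for Notch1, -0.41 for Ogfr, 0.052 for Csf1r, 0.12 for Emcn, -0.46 for Alas2 and 0.22 for Nt5e. Against VmSC4 alone it was -0.018 for Fas and -0.20 for Cd68, and against VmSC5 alone -0.12 for Ogfr, 0.35 for Lyz2 and 0.24 for Nt5e. Under library totals it was 0.041 for Ifnar2, 0.16 for Nt5e and 0.053 for Lgals1. With 1 library left out it was -0.033 to 0.24 for Fas, -0.22 to 0.76 for Cd68 and -0.30 to 0.64 for Alas2, lowest without Treg library 3, 2 and 1 in that order. With the sign kept, calls were lost under library totals for Cd55, Dgat2, Emcn, Il18bp, Lgals9, Lif, Nfil3 and Notch2, with transferred stromal libraries for Calca, Cd36, Ifnar2, Lgals9 and Lif, with OSMf/f Treg libraries for Il18bp, Il1rap, Itga1, Kdr, Lgals1, Lif, Nrp1 and Pparg, against VmSC4 alone for Cd55, Cd79a, Ighm, Il1rap, Lgals1, Nfil3 and Nrp1 and against VmSC5 alone for Dgat2, Emcn, Entpd1, Icam1, Il18bp, Il6ra, Itga1 and Lrrc32. They were also lost with stromal libraries as 1 group for Emcn, Entpd1, Ighm, Il6ra, Itga1, Lrrc32, Nrp1, Nt5e and Thy1, without the filter on low counts for Ighm, Il6ra and Nrp1, in thinned counts for Emcn and Nt5e, with RLE factors for Nt5e and in DESeq2 for Nt5e. With the sign kept, calls were gained under library totals for Cd47, Fas, Notch1, Ogfr and Tnfrsf14, with transferred stromal libraries for Csf1r, Notch1 and Tnfrsf14, with OSMf/f Treg libraries for Cd47 and Cidec and against VmSC4 alone for Csf1r, Lyz2, Notch1 and Tnfrsf14. They were also gained without the filter on low counts for Cidec and Lyz2, in thinned counts for Cd47 and Notch1, and with the replicate block for Notch1.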
